A study of Bos grunniens with 36 samples.

Results

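Mammary gland tissue of 4 yaks (Bos grunniens) in early lactation, 15 days after calving (day +15), was compared with tissue taken 30 days before calving (day -30). The comparison covers 8 of the 36 arrays of the series: the 4 columns of the deposited value table whose sample names give +15d and the 4 that give -30d, paired by the yak number, which is 1 to 4 at both days. The series as a whole follows the same 4 numbered yaks over 9 days from day -30 to day +240. All animals were female, no treatment is named for either group, and the sources used here give no breed, parity, age or diet. Per the labels, a veterinarian took the tissue from the left and the right rear gland in alternation and removed fat and connective tissue before freezing, and the side is not given array by array. Total RNA of each biopsy was labelled with 1 dye and hybridised singly to microarrays designed for cattle transcripts.

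The milk-producing cells of the gland are luminal epithelial cells, which divide and form alveoli in pregnancy and then secrete milk protein, fat and lactose after calving. In ruminants, milk fat is made from acetate and 3-hydroxybutyrate, which the rumen and gut wall supply, and from fatty acids taken up from blood lipid. Milk protein leaves the cell through the endoplasmic reticulum and Golgi, whereas fat droplets are wrapped in cell membrane as they leave.

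Values are log2 processed signals of the deposited table, scaled so that 0 is close to the 75th percentile of the array. A change is the day +15 mean minus the day -30 mean on that scale, given with its standard error (±), from a limma model of all 36 arrays with day as the main effect and yak as a random block. The p-values are two-sided and adjusted by the Benjamini-Hochberg method over 20108 genes or unnamed transcripts, and a gene is said to have risen or fallen only where the adjusted p was under 0.05. The labels number the yaks 1 to 4 at every day. The p-values measure the spread between these 4 animals and their arrays, pooled for each gene over all 9 days. A standard error can therefore be wider or narrower than the values of day -30 and day +15 alone would give.

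Several features of the arrays go together with the day. Each column of the deposited table held the values of exactly 1 scanner file, but for all 36 columns that file is deposited under another sample, and only 9 of the 36 have the same day in both records. By the record of the scanner files, the day +15 arrays would be the columns of yak 4 at day +15 and of yaks 1 to 3 at day +30. Those of day -30 would be the columns of yak 4 at day -30 and of yaks 1 to 3 at day -15. Days and yaks here are those of the table's columns. By the matched files the 4 arrays of day -30 lay on slide 1 and the 4 of day +15 on slide 4, with each yak at the same position on the slide, so that day and slide cannot be told apart, nor yak and position. The day +15 arrays were dimmer, with a 75th percentile of 1028 to 2114 intensity units against 4846 to 5756 at day -30, and 77.6% to 80.2% of their spots lay well above background against 84.5% to 89.3%. The dimmest was that of yak 4 (1028, others 1776 to 2114), on which the same intensity gives a higher scaled value. No spot was marked as saturated. Precision is limited by having 4 arrays a day.

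Between the days 3609 of the 20108 genes differed (17.9%), of which 2059 were higher at day +15 (10.2%) and 1550 lower (7.71%). The unadjusted p was under 0.05 for 6804 genes. In 6431 genes (32.0%) the 4 values of one day lay entirely above the 4 of the other, 18.0% of all genes higher and 14.0% lower. The median change over all genes was -0.01, and 327 of the genes that rose did so by more than 2 on the log2 scale, as did 182 of those that fell. The split between higher and lower calls depends on the scaling: it was 1760 to 1892 with quantile normalization, 1725 to 1956 after normexp background correction, and 2256 to 1132 when each column was centred on its median. When brightness, as log2 of that percentile, was added to the fit as a covariate, 175 genes were higher and 532 lower. The percentile did not overlap between the days (1028 to 2114 units at day +15, 4846 to 5756 at day -30). The brightness slope was fitted over all 9 days, so the adjusted change between these 2 days is an extrapolation. The brightest spots went the other way, at 604323 to 650987 units at day +15 and 199924 to 520338 at day -30. A call kept or lost with this covariate therefore cannot tell day from brightness. With the days and yaks of the scanner files 106 were higher and 144 lower. Yak 3 weighed most among the animals, as 367 genes were higher and 229 lower without it, against 844 and 501 without yak 1, 797 and 645 without yak 2 and 785 and 792 without yak 4.

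**Figure D1:**
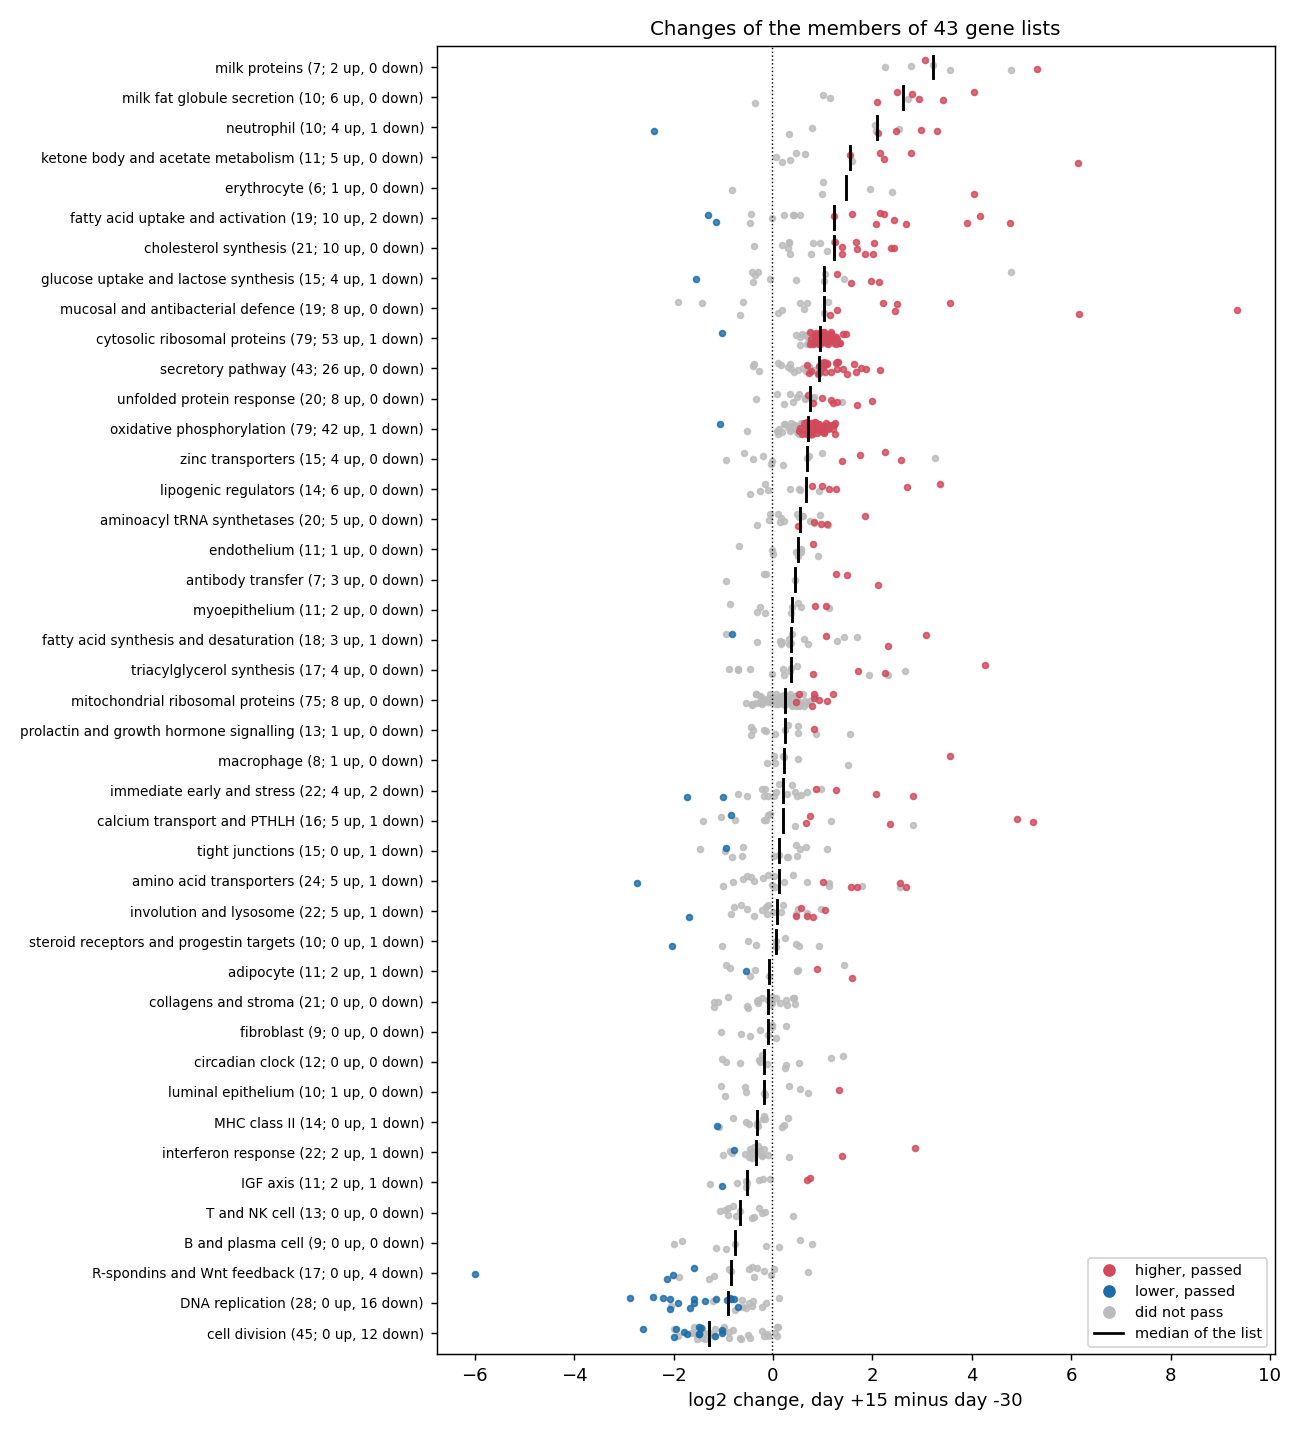
Change of each tested member of 43 gene lists, as the day +15 mean minus the day -30 mean (x axis, log2), with 1 point per gene and the list median as a black bar; the dotted line is the median of all genes, -0.01, and each label gives the number tested and the numbers that passed in each direction. The medians run from -1.30 for cell division to 3.21 for milk proteins.

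The major milk proteins were all higher at day +15, and 2 of the 7 tested passed the test, none falling. Their median change was 3.21, and in all 7 the values of the days did not overlap. In a biopsy, more cells of a type and more RNA per cell cannot be told apart, here and in the groups that follow. CSN3, the kappa-casein that coats and stabilises the casein micelle, was at 5.45, 5.64, 5.93 and 4.92 in yaks 1 to 4 at day -30 and at 8.16, 8.52, 8.29 and 9.23 at day +15. All 4 yaks moved up, yak 4 the furthest, and the rise was 3.07 ± 0.80 (adjusted p 0.0116). CSN1S2, the alpha-S2-casein, was at 2.91, 1.17, 4.14 and 2.58 and then at 7.72, 7.85, 7.96 and 8.49. The day +15 values lay close together whereas those of day -30 were spread, with yak 2 lowest, and the rise was 5.31 ± 1.45 (adjusted p 0.015).

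The other main caseins had differences of similar size that did not pass. CSN1S1, the alpha-S1-casein, was at 5.23, 4.28, 5.69 and 4.39 at day -30 and at 8.12, 8.51, 8.28 and 8.96 at day +15, a difference of 3.57 ± 1.39 (adjusted p 0.0697). Its probe crosses an exon junction on cattle chromosome 6 (chr6:87150932-87152524, UMD 3.1, plus strand), and this is the sequence that caught the casein message:
CSN1S1: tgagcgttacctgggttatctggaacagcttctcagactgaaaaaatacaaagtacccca
CSN2, the beta-casein, had a difference of 2.78 ± 1.48 (adjusted p 0.184), from 4.84 to 5.64 at day -30 to 7.79 to 8.18 at day +15. The whey protein LALBA, which makes lactose synthase out of a galactosyltransferase, was at 3.68, -0.31, 3.62 and 3.08 and then at 6.94, 7.35, 7.09 and 7.82, a difference of 4.78 ± 1.90 (adjusted p 0.0745). Yak 2 at day -30 stood far below the other 3. PAEP, the beta-lactoglobulin of whey, differed by 2.25 ± 1.09 (adjusted p 0.145).

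The milk proteins were also brighter on the arrays before scaling. Of all genes, 0.880% had intensities at day +15 that lay wholly above those of day -30 before the arrays were brought to a common 75th percentile, and 85.0% lay wholly below, with a median unscaled change of -1.72. Among the 7 milk proteins 5 lay wholly above. CSN1S1 had 107718 to 249901 intensity units at day -30 and 510977 to 648839 at day +15, and LALBA 4477 to 73824 against 233118 to 289018. CSN3 had 172939 to 295316 units at day -30 and 604340 to 651001 at day +15. The brightest spot of each day +15 array lay at 604323 to 650987 units, so CSN3 was at the top of these arrays. Whether so bright a signal was near its limit was not tested. For PAEP the unscaled ranges overlapped (138277 to 269364 against 139026 to 445017), as they did for CSN2. With brightness as a covariate the median of the milk proteins was -1.23 and none passed, and in the record of the scanner files it was 1.71 with none passing. Leaving out yak 4, all 7 passed, and leaving out any other yak, none did.

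**Figure D2:**
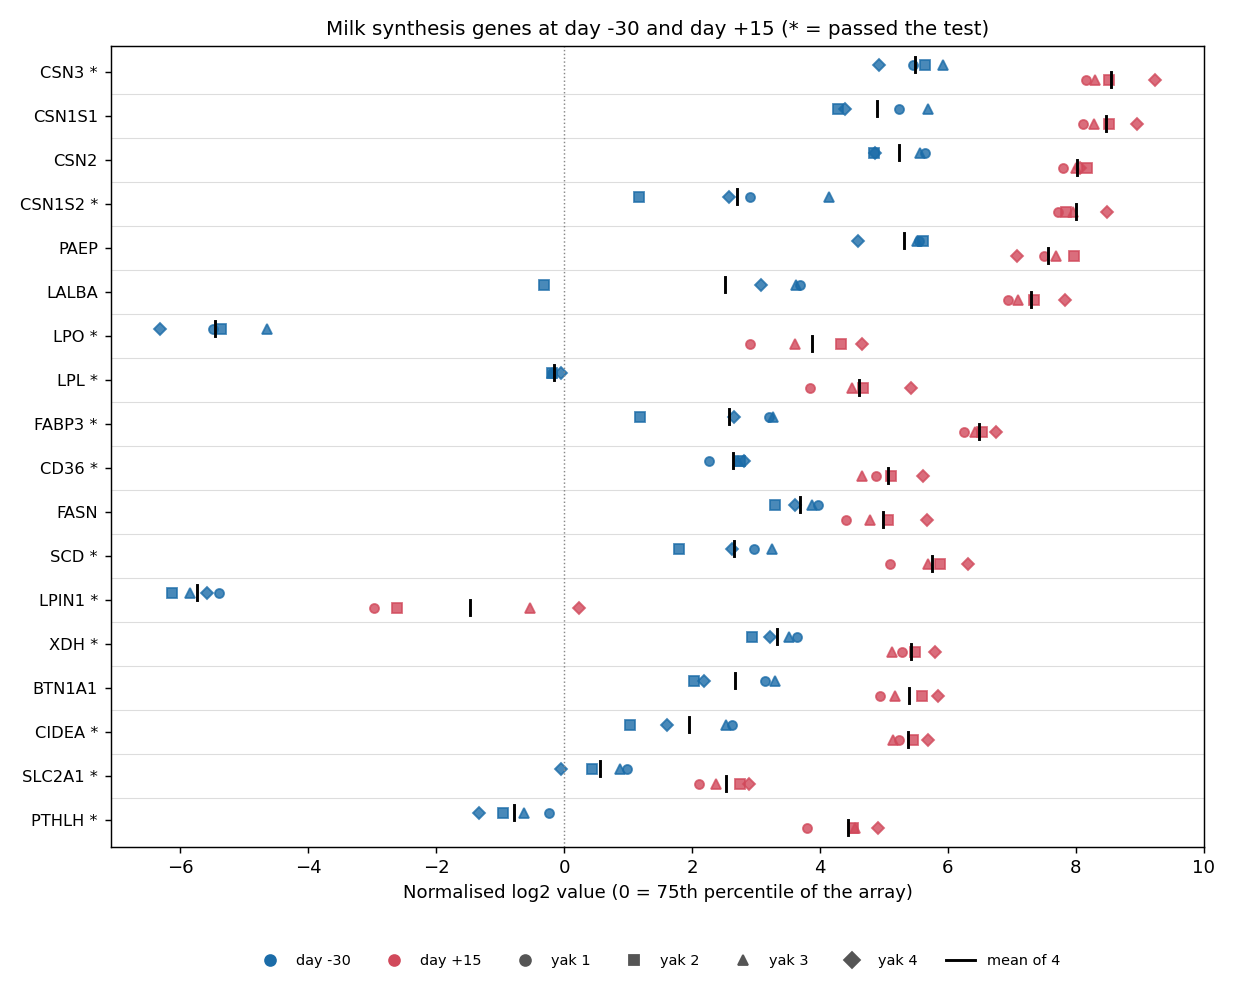
Normalised log2 value (x axis, 0 is the 75th percentile of the array) of 18 genes of milk synthesis in each yak at day -30 (blue) and day +15 (red), with a marker shape per yak and a black bar for the mean of 4; an asterisk marks genes that passed the test. The days do not overlap in any of the 18, and CSN1S1, CSN2, PAEP, LALBA, FASN and BTN1A1 did not pass.

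Genes of defence that are secreted into milk gave the largest rise of the comparison. Of 19 genes of mucosal and antibacterial defence 8 rose and none fell, with a median change of 1.02. LPO, lactoperoxidase, an antibacterial enzyme of milk, was at -5.49, -5.36, -4.65 and -6.31 at day -30 and at 2.91, 4.33, 3.61 and 4.66 at day +15. Its spots were well above background on every array of both days, and the rise was 9.33 ± 1.98 (adjusted p 0.00371). Before scaling LPO had 72 to 194 intensity units at day -30 and 15863 to 35768 at day +15. CRISP3, a cysteine-rich secretory protein, rose by 6.16 ± 1.64 (adjusted p 0.0127), with yak 1 the lowest at day +15 (-1.28, the others 1.26 to 3.88). CD14, the lipopolysaccharide co-receptor, rose by 3.57 ± 0.51 (adjusted p 0.000206), from -0.39 to 0.15 up to 2.85 to 3.93. It was also among the genes that passed with brightness as a covariate (1.86, adjusted p 0.0025) and in the scanner record (3.01, adjusted p 0.0276). LBP, the lipopolysaccharide-binding protein, rose by 2.45 ± 0.83 and MUC1, the mucin of the milk fat globule membrane, by 2.50 ± 0.86. Lactoferrin (LTF), an iron-binding milk protein, did not pass, with a difference of 0.62 ± 0.84. Its values overlapped, at 2.33 to 3.82 on day -30 and 4.99, 4.17, 4.56 and 1.31 on day +15, where yak 4 was the lowest of all 8 arrays.

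Of 7 genes that carry antibody into milk or call antibody-secreting cells, 3 rose. CCL28, the chemokine that draws IgA-secreting cells to the gland, was at 0.12, -0.21, -0.29 and 0.58 at day -30 and at 2.04, 2.03, 1.95 and 2.60 at day +15, a rise of 2.10 ± 0.36 (adjusted p 0.000711). The days were well apart on the scaled values, and the call was kept with brightness as a covariate (1.51) and in the scanner record (1.89). Before scaling the days overlapped in CCL28, at 3974 to 8531 intensity units at day -30 and 6230 to 8659 at day +15. PIGR, the receptor that moves polymeric IgA across the epithelium, rose by 1.49 ± 0.51 and B2M, the light chain of MHC class I and of the neonatal Fc receptor, by 1.28 ± 0.31. The change of B2M turned to -0.10 with quantile normalization, and that of PIGR to -0.34 with brightness as a covariate.

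Of 19 genes that take up or activate fatty acids, 10 rose and 2 fell, with a median of 1.24. LPL, lipoprotein lipase, which frees fatty acids from blood lipid, was at -0.18, -0.19, -0.19 and -0.05 at day -30 and at 3.84, 4.68, 4.49 and 5.42 at day +15. On the scaled values the 4 yaks were nearly alike before calving and yak 4 was the highest after it. The rise was 4.76 ± 1.38 (adjusted p 0.0198). LPL stood at 4242 to 5542 intensity units before scaling at day -30 and at 30167 to 45387 at day +15, where yak 2 was the highest and yak 4 was at 43954. SLC27A6, a fatty acid transporter, rose by 4.17 ± 1.19 and FABP3, a cytosolic fatty acid carrier, by 3.91 ± 1.35. VLDLR, a lipoprotein receptor, rose by 2.68 ± 0.59 and CD36, a fatty acid translocase, by 2.43 ± 0.66. The other transporters SLC27A1 and SLC27A3 fell by 1.14 and 1.31 on the log2 scale. With brightness as a covariate none of the list passed and its median was 0.05, and FABP3 turned to -0.71. In the scanner record none passed (median 0.99), and without yak 3, 2 did.

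Of 11 acetate and ketone body genes 5 rose and none fell, with a median of 1.55. BDH1, the 3-hydroxybutyrate dehydrogenase, was at -3.26, -4.84, -2.52 and -5.33 and then at 0.72, 2.61, 2.12 and 3.12, a rise of 6.13 ± 1.33 (adjusted p 0.00429). SLC16A1, a carrier of lactate and ketone bodies, rose by 2.78 ± 0.97, and the acetate-activating enzymes ACSS1, ACSS2 and ACSS3 rose by 2.16 ± 0.42, 2.24 ± 0.79 and 1.55 ± 0.39. None of the 11 passed with brightness as a covariate (median 0.04) or in the scanner record (0.83), and 2 did without yak 3 or without yak 4.

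Fatty acid synthesis itself moved less evenly. Of 18 genes 3 rose and 1 fell, with a median of 0.37. SCD, the stearoyl-CoA desaturase, was at 2.97, 1.80, 3.25 and 2.62 and then at 5.10, 5.88, 5.69 and 6.31, a rise of 3.08 ± 0.99 (adjusted p 0.0314). IDH1, which supplies NADPH in ruminant mammary cells, rose by 2.31 ± 0.56 and ELOVL1, a fatty acid elongase, by 1.06 ± 0.34. FASN, the fatty acid synthase, differed by 1.29 ± 0.70 (adjusted p 0.191) and ACACA, the acetyl-CoA carboxylase, by 1.70 ± 0.74 (adjusted p 0.103), in both with no overlap between the days. The 4 yaks stood at 3.29 to 3.97 for FASN before calving and at 4.40 to 5.67 after it. ACLY, which makes cytosolic acetyl-CoA from citrate, fell by 0.82 on the log2 scale (adjusted p 0.0207), but its 4 probes ran from -0.85 to 1.22. Before scaling FASN was not brighter at day +15 (44589 to 59319 against 54354 to 89929), and with brightness as a covariate it was at -1.25 (adjusted p 0.0484).

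In triacylglycerol synthesis 4 of 17 rose, none fell and the median was 0.36. LPIN1, a phosphatidate phosphatase, was at -5.40, -6.12, -5.84 and -5.58 and then at -2.97, -2.61, -0.53 and 0.24, a rise of 4.27 ± 1.18 (adjusted p 0.0161). Yaks 3 and 4 were the higher at day +15. The acyltransferases AGPAT6, AGPAT1 and AGPAT9 rose by 2.26 ± 0.61, 1.71 ± 0.51 and 0.80 ± 0.27. None of the 17 passed with brightness as a covariate or without yak 2 or yak 3, and 1, AGPAT9, did in the scanner record.

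Of 10 genes of fat globule secretion 6 rose and none fell, and their median of 2.61 was second to the milk proteins among the 43 lists. MUC15, a membrane mucin, rose by 4.05 ± 1.37, and CIDEA, a lipid droplet protein, by 3.43 ± 1.01. MFGE8, lactadherin, rose by 2.95 ± 0.92 and RAB18, a droplet-bound GTPase, by 2.80 ± 0.60. XDH, the xanthine dehydrogenase that binds the droplet to the membrane, was at 3.64, 2.93, 3.52 and 3.23 and then at 5.28, 5.49, 5.12 and 5.80, a rise of 2.09 ± 0.65 (adjusted p 0.0277). BTN1A1, butyrophilin, its partner on the membrane, was at 2.04 to 3.29 and then at 4.93 to 5.84, which did not overlap, but its difference of 2.72 ± 2.22 did not pass (adjusted p 0.395). Before scaling 6 of the 10 were wholly brighter at day +15, against 0.880% of all genes. With brightness as a covariate the list median was -0.33 and BTN1A1 was at -4.62 (adjusted p 0.0826).

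Regulators of lipid synthesis rose in 6 of 14 cases, with none falling and a median of 0.66. PPARGC1A, a coactivator of nuclear receptors, was at -4.92, -3.51, -4.57 and -5.26 and then at -1.41, -1.11, -1.33 and -0.96, a rise of 3.36 ± 0.53 (adjusted p 0.000317) that was kept with brightness as a covariate (1.93, adjusted p 0.0226). INSIG1, which holds back the activation of sterol regulators, rose by 2.69 ± 0.66, its relative INSIG2 by 1.12 ± 0.23, PPARA by 1.26 ± 0.25 and the site-2 protease MBTPS2 by 0.99 ± 0.28. The sterol regulator SREBF1 itself differed by 0.93 ± 0.54 and PPARG, the adipogenic receptor, by 0.54 ± 0.26, and neither passed. In cholesterol synthesis 10 of 21 rose, none fell and the median was 1.23. TM7SF2 rose by 2.43 ± 0.62, IDI1 by 2.37 ± 0.53, PMVK by 2.04 ± 0.68, SC5DL by 2.02 ± 0.51 and MSMO1 by 1.84 ± 0.46, all enzymes of the route from mevalonate to cholesterol. None of this list passed with brightness as a covariate (median -0.16).

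Of 15 genes of glucose uptake and lactose synthesis 4 rose and 1 fell, with a median of 1.03. SLC2A1, the main glucose transporter of the gland, was at 0.99, 0.44, 0.87 and -0.05 and then at 2.12, 2.74, 2.38 and 2.89, a rise of 1.97 ± 0.52 (adjusted p 0.0127). UGP2, which makes UDP-glucose, rose by 2.12 ± 0.55, B4GALT1, the galactosyltransferase that joins LALBA, by 1.58 ± 0.54, and SLC35A2, the Golgi UDP-galactose carrier, by 1.28 ± 0.44. SLC2A10, another member of the glucose transporter family, fell by 1.55 on the log2 scale. None of the 15 passed with brightness as a covariate (median -0.11), in the scanner record (0.55) or without yak 3.

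Among 16 genes of calcium transport and its hormone 5 rose and 1 fell. PTHLH, the parathyroid hormone-like hormone that the lactating gland releases to draw calcium from bone, was at -0.24, -0.95, -0.62 and -1.33 and then at 3.80, 4.51, 4.55 and 4.91. The rise of 5.23 ± 0.91 (adjusted p 0.000738) was present in all 4 yaks, and it passed with brightness as a covariate (2.27, adjusted p 0.047) and in the scanner record (4.31, adjusted p 0.026). ATP2B2, the plasma membrane pump that moves calcium into milk, rose by 4.91 ± 0.88 (adjusted p 0.000913), but was well above background on only 2 of the 4 arrays at day -30. It also passed with brightness (2.03) and in the scanner record (4.39). The store-operated channel ORAI1 rose by 2.36 ± 0.71, the Golgi protein NUCB1 by 0.75 ± 0.24 and the reticulum pump ATP2A2 by 0.67 ± 0.22, while the pump ATP2B4 fell by 0.84 on the log2 scale.

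Of 15 zinc transporters 4 rose and none fell. SLC30A4, which loads zinc into vesicles, rose by 2.57 ± 0.78, the importers SLC39A8 and SLC39A14 by 2.26 ± 0.59 and 1.75 ± 0.39, and SLC30A6 by 1.39 ± 0.27. SLC30A6 was among the genes that kept their call when any 1 yak was left out. Of 24 amino acid transporters 5 rose and 1 fell. SLC1A5 rose by 2.68 ± 0.85, SLC7A10 by 2.55 ± 0.79, SLC1A4 by 1.69 ± 0.49, SLC7A1 by 1.57 ± 0.54 and SLC38A2 by 1.0 ± 0.34, and SLC6A14 fell by 2.74 on the log2 scale. SLC7A1 was dim at both days, at 24 to 83 intensity units before scaling at day -30 and 33 to 67 at day +15. None of the zinc or amino acid transporters passed with brightness as a covariate, with medians of 0.02 and -0.05.

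In the secretory pathway, which carries milk protein out of the cell, 26 of 43 rose and none fell, with a median of 0.93. SAR1B, the GTPase that starts transport vesicles at the reticulum, rose by 2.15 ± 0.50, and SEC62, a part of the protein channel, by 1.88 ± 0.43. SRP54, which brings ribosomes to the membrane, was at 0.15, 0.54, 0.46 and 0.48 and then at 1.74, 2.48, 2.00 and 2.52, a rise of 1.77 ± 0.37 (adjusted p 0.00296). The signal peptidase parts SEC11C and SPCS3 rose by 1.67 ± 0.44 and 1.63 ± 0.43. Without yak 3, 6 of the 43 passed, with brightness as a covariate 1 did (median 0.09), and in the scanner record none did (0.45). Before scaling, none of the 43 was wholly brighter at day +15 and 29 were wholly dimmer, against 0.880% and 85.0% of all genes.

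Of 20 genes of the unfolded protein response 8 rose and none fell, with a median of 0.75. DNAJC3, a reticulum co-chaperone, rose by 2.0 ± 0.45, the transcription factor ATF4 by 1.70 ± 0.43, DDIT3 by 1.29 ± 0.38, the co-chaperone DNAJB11 by 1.21 ± 0.29 and XBP1, the factor spliced under reticulum load, by 1.18 ± 0.34. Of 20 aminoacyl tRNA synthetases 5 rose, led by TARS at 1.86 ± 0.47 and GARS at 1.09 ± 0.29. None of either list passed with brightness as a covariate or in the scanner record, and the unfolded protein response had medians of 0.04 and 0.44. Its median was 0.29 with quantile normalization, and without yak 3 only 1 of the 20 passed.

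Cytosolic ribosomal proteins, the parts of the ribosomes that translate milk protein mRNA, were higher on the scaled values. Of 79, 53 rose and 1 fell, and in 78 the days did not overlap on the scaled values, with a median of 0.94. RPL7 rose by 1.48 ± 0.34, RPS12 by 1.41 ± 0.35, RPS24 by 1.35 ± 0.36 and RPL5 by 1.29 ± 0.31, though the 3 probes of RPS24 ran from -0.86 to 1.35. RPL3L, the form known from muscle, fell by 1.03 on the log2 scale. The direction of the list depends on the scaling: its median was -0.19 with quantile normalization, with 1 member higher and 24 lower, -0.16 after normexp, and -0.16 with brightness as a covariate. Before scaling none of the 79 was wholly brighter at day +15 and 62 were wholly dimmer, against 0.880% and 85.0% of all genes. Many ribosomal protein genes have near-identical pseudogene copies, and cross-hybridisation was not tested.

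Oxidative phosphorylation genes rose in 42 of 79 cases and fell in 1, with a median of 0.71. UQCRB and COX7B rose by 1.26 ± 0.30 and 1.26 ± 0.27, NDUFA5 by 1.23 ± 0.35, NDUFA4 by 1.20 ± 0.30 and ATP5J by 1.19 ± 0.21 (adjusted p 0.000712). ATP5J, a part of ATP synthase, was at 2.17 to 2.45 and then at 3.41 to 3.50, and alone of the list passed with brightness as a covariate (0.54). COX7A1, the cytochrome oxidase form known from heart and muscle, fell by 1.07 on the log2 scale. With quantile normalization 11 of the 79 were higher and 1 lower (median 0.19). On the unscaled intensities none was wholly brighter at day +15 and 74 were wholly dimmer, against 0.880% and 85.0% of all genes. Of 75 mitochondrial ribosomal proteins 8 rose, a share close to the 10.2% of all genes, and none fell, with a median of 0.25. MRPL33 rose by 0.93 ± 0.19 and MRPS36 by 1.09 ± 0.24.

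Among the genes that passed, moved the same way in all 4 yaks and have a symbol in the yak gene table, the 12 largest rises were LPO, SCN7A, PHYHIPL, MYBPC1, GABRA2, SNTN, BDH1, PCP4, SYNPR, TTC36, GTSF1 and RRAD. SCN7A, a sodium channel protein, was at -7.48, -8.39, -3.94 and -9.89 at day -30, well above background on 1 of the 4 arrays, and at 0.59, 1.78, 1.44 and 2.59 at day +15. The day -30 values are thus at the floor of the array in 3 yaks, and the change of 9.03 ± 1.96 (adjusted p 0.00422) carries no exact size. PHYHIPL, GABRA2, a receptor subunit for the transmitter GABA, and SNTN, a protein of cilia, were not well above background on any array at day -30. Against the background of those arrays, and on the scaled values, PHYHIPL was at least 192-fold higher at day +15 (adjusted p 0.00552). On the same terms SNTN was at least 75.3-fold higher (adjusted p 0.00116) and GABRA2 at least 49.4-fold (adjusted p 0.00359). These bounds set the day +15 mean against, per array, the higher of the lowest signal well above background and the probe's own. They hold only for the scaled values, and for the mean of the 4 yaks and not for each yak. The unscaled differences of the means, with no such floor, were 6.94 for PHYHIPL, 6.03 for SNTN and 6.105 for GABRA2 (log2). Before scaling GABRA2 ran from 56 intensity units in yak 1 to 2526 in yak 4 at day +15, PHYHIPL from 1098 to 4721 and SNTN from 519 to 1265.

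MYBPC1, a myosin-binding protein of slow muscle, was at -7.15 to -6.52, well above background on 1 array, and then at 0.38 to 2.07, so its size is not exact either. SYNPR, a synaptic vesicle protein, went from -8.20 to -6.98, again above background on 1 array, to -2.44 to -1.13, likewise with no exact size, and passed with brightness as a covariate (4.98, adjusted p 0.0177). PCP4, a calmodulin-binding peptide, rose by 6.0 ± 1.39, TTC36 by 5.65 ± 1.31 and GTSF1 by 5.33 ± 1.69. RRAD, a small GTPase of muscle, was at -1.61, -2.93, -1.65 and -2.36 and then at 2.64, 3.34, 3.15 and 3.29, with well measured spots at both days. Its rise of 5.24 ± 0.66 (adjusted p 2.5e-05) passed with brightness as a covariate (3.90, adjusted p 0.00225) and in the scanner record (5.08, adjusted p 0.0152).

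**Figure D3:**
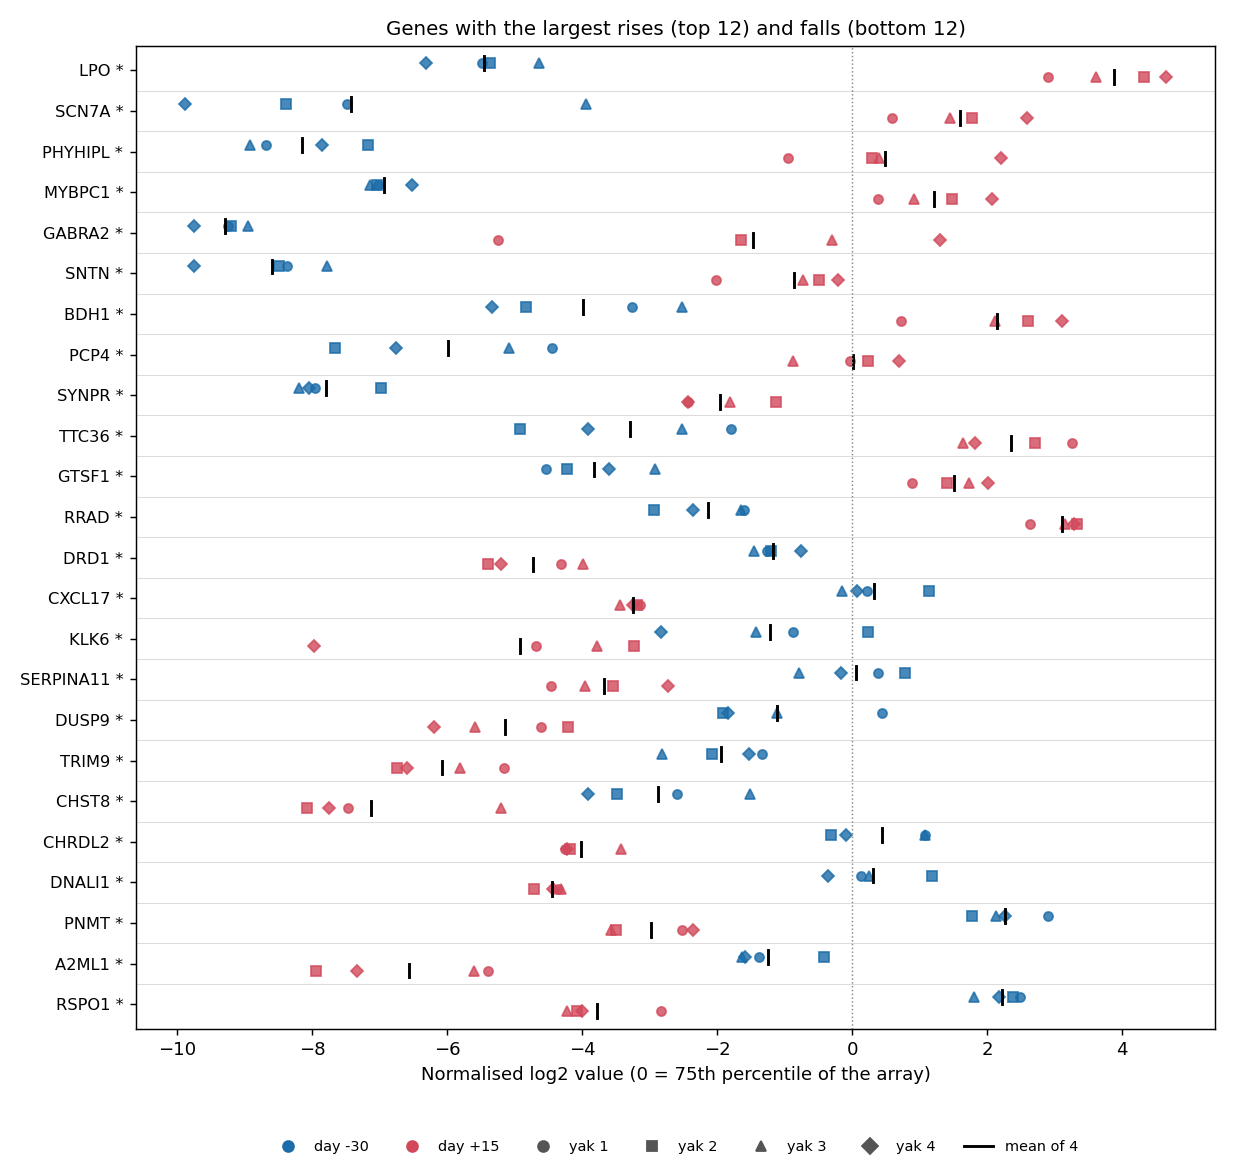
Normalised log2 value (x axis, 0 is the 75th percentile of the array) of the 12 genes with the largest rises and the 12 with the largest falls in each yak at day -30 (blue) and day +15 (red), with a marker shape per yak and a black bar for the mean of 4. The days do not overlap in any of the 24, and LPO and RSPO1 lie at the ends, at 9.33 and -6.0.

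The largest fall was that of RSPO1, an R-spondin, which are secreted proteins that strengthen Wnt signals. It was at 2.49, 2.38, 1.80 and 2.18 at day -30 and at -2.83, -4.08, -4.23 and -4.01 at day +15, where yak 1 lay above the rest. The change was -6.0 ± 0.71 (adjusted p 9.92e-06), which in intensity before scaling was 16931 to 32339 units against 64 to 297. A second RSPO1 probe went from -0.52 to 1.06 at day -30 to -8.38 to -5.11 at day +15, a difference of -7.31. The lowest signals well above background on the day +15 arrays were -6.27 to -5.66. The value of -8.38 lay below these, so that difference carries no exact size. The probe of DNALI1, a dynein light intermediate chain of cilia, lies 43.4 kb from the first RSPO1 probe on cattle chromosome 3. DNALI1 was at 0.14, 1.19, 0.25 and -0.35 and then at -4.36, -4.72, -4.31 and -4.43. Its change of -4.76 ± 0.33 had the smallest adjusted p of the named genes (8.61e-11). CHRDL2, a secreted inhibitor of bone morphogenetic proteins, was at 1.08, -0.31, 1.09 and -0.10 and then at -4.25, -4.18, -3.42 and -4.22, a change of -4.46 ± 0.49 (adjusted p 4.75e-06). Yak 3 was the least low after calving. The probes of these genes and of SCN7A that cross an exon junction are given as the sequences behind the largest changes, all 60 bases long, 5′ to 3′, from the array files:
RSPO1, second probe: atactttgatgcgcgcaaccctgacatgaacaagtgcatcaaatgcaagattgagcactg
DNALI1: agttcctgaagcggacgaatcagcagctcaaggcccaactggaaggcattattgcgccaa
CHRDL2: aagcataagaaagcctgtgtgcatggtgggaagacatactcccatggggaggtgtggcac
SCN7A: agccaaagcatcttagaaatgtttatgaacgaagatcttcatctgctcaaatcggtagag
On UMD 3.1 they lie at chr3:108870852-108872918 (plus strand), chr3:108918186-108920147 (minus), chr15:54794191-54795175 (minus) and chr2:29975813-29978058 (plus). Mismatches between these cattle sequences and yak transcripts were not tested.

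RSPO1, DNALI1 and CHRDL2 passed under both of the settings that removed most calls. With brightness as a covariate their changes were -4.40, -4.59 and -5.50, and in the scanner record -6.47, -4.50 and -4.83. Their means at day -15 (2.50, 0.71 and 0.56) were close to those at day -30, and at all 7 days from day +1 on they stayed low (-4.50 to -2.22 for RSPO1, -4.88 to -3.94 for DNALI1 and -4.56 to -3.40 for CHRDL2). The scanner record mainly sets columns of day +30 against columns of day -15, so a pass there does not repeat the day +15 comparison. A pass with brightness as a covariate cannot tell day from brightness, as brightness did not overlap between day -30 and day +15.

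PNMT, which turns noradrenaline into adrenaline, fell from 2.91, 1.78, 2.13 and 2.26 to -2.53, -3.49, -3.57 and -2.36, a change of -5.25 ± 0.89 (adjusted p 0.000609). A2ML1, a protease inhibitor, fell from -1.63 to -0.41 down to -7.95 to -5.40 and was well above background on 2 of the 4 arrays at day +15, as was TRIM9, a ubiquitin ligase. CHST8, a sulfotransferase, was so on 1. The fitted changes were -4.14 ± 0.87 for TRIM9 and -4.25 ± 1.09 for CHST8. As the other day +15 arrays were not well above background, the changes of these 3 genes carry no exact size. DUSP9, a phosphatase of MAP kinases, changed by -4.04 ± 0.47 (adjusted p 9.35e-06), and SERPINA11, a serpin, by -3.73 ± 1.00. DRD1, a dopamine receptor, changed by -3.55 ± 0.63 and KLK6, a serine protease, by -3.70 ± 1.04. The other probe of KLK6 went up by 1.0 (adjusted p 0.187 where it stood for the gene), so its direction rests on the probe. CXCL17, a chemokine of mucosal surfaces, fell from 0.21, 1.14, -0.15 and 0.08 to -3.14, -3.19, -3.44 and -3.25, a change of -3.57 ± 0.73 (adjusted p 0.00295).

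Of 17 R-spondins, Wnt ligands and feedback genes 4 fell and none rose, with a median of -0.84. AXIN2, a feedback target of Wnt signals, was at -2.07, -2.55, -2.06 and -2.34 and then at -3.74, -4.04, -3.92 and -3.71, a change of -1.60 ± 0.29 (adjusted p 0.000942). The ligand WNT6 changed by -2.02 ± 0.48 and the inhibitor DKK1 by -2.14 ± 0.65. With brightness as a covariate the list median was 0.05, with RSPO1 and AXIN2 (-1.28) still passing. MYC, a growth regulator counted in the list of immediate early genes, changed by -1.74 ± 0.27 (adjusted p 0.000295), from 2.12 to 2.57 down to 0.15 to 1.12, and passed with brightness (-1.59) and in the scanner record (-1.42).

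Of 45 cell division genes 12 fell and none rose, with a median of -1.30, and of 28 DNA replication genes 16 fell and none rose, with a median of -0.90. KIF20A, a mitotic kinesin, was at -1.47, -1.78, -1.74 and -2.58 and then at -4.52, -3.56, -4.22 and -5.69, a change of -2.61 ± 0.56 (adjusted p 0.00421). The kinase AURKB changed by -1.99 ± 0.63, MELK by -1.94 ± 0.68, CDC20, an activator of the anaphase complex, by -1.78 ± 0.50 and KIF23 by -1.72 ± 0.51. In replication, CDC6 changed by -2.88 ± 0.72 (well above background on 2 of 4 arrays at day +15), UHRF1 by -2.42 ± 0.53, CDT1 by -2.21 ± 0.52, GINS2 by -2.08 ± 0.47 and GINS4 by -2.07 ± 0.50, genes that load or fire replication origins or keep DNA methylation. UHRF1 was at 1.59, 1.32, 1.94 and 1.23 and then at -1.40, 0.16, -0.97 and -1.39. Yak 2 fell least in UHRF1 and also in CDC6, where it stood at -3.12 at both days. The medians of both lists were below 0 in each alternative tried, at -0.56 and -0.82 with brightness as a covariate, where 3 and 5 members passed, and at -1.59 and -0.81 in the scanner record, where 9 and 1 passed. Without yak 3, 2 cell division and 1 replication genes passed. The usual proliferation markers MKI67 and TOP2A were not among the genes tested.

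Few genes of the hormone lists passed. Of 10 steroid receptors and progestin targets 1 fell, TNFSF11, the RANK ligand, by 2.04 on the log2 scale, with overlapping days and only 1 of 4 arrays well above background at day +15. PGR, the progesterone receptor, differed by 0.93 ± 0.40, with no overlap between the days on the scaled values. ESR1, the oestrogen receptor, differed by 0.53 ± 0.44, and neither passed. In prolactin and growth hormone signalling 1 of 13 rose, the kinase JAK2 by 0.82 ± 0.29. PRLR, the prolactin receptor, differed by 0.50 ± 0.44 and STAT5A, its transcription factor, by 0.05 ± 0.40, with values that overlapped. In the IGF axis 2 of 11 rose and 1 fell. IGF1 was at -0.30, -0.60, -0.39 and -0.46 and then at -1.35, -1.76, -1.41 and -1.35, a change of -1.03 ± 0.31 (adjusted p 0.0256). IGFBP7 and IGFBP4, binding proteins of IGF, rose by 0.74 ± 0.23 and 0.69 ± 0.25, and both turned below 0 with quantile normalization (-0.10 and -0.14). The 2 probes of IGFBP4 ran from -1.51 to 0.69.

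The other lists can be set beside the 10.2% of all genes that rose and the 7.71% that fell. The shares that rose were 22.7% for involution and lysosome, 18.2% for immediate early and stress and 9.09% for interferon response. Of 22 immediate early and stress genes 4 rose and 2 fell, with FOS at 2.81 ± 0.83, DUSP1 at 2.08 ± 0.35, FOSL1 at 1.27 ± 0.37 and JUN at 0.87 ± 0.25, and with HSPA6 at -1.0 ± 0.32 beside MYC. FOS was highest at day +15 in yak 4 (2.01, the others 0.71 to 0.92), and FOS and DUSP1 passed with brightness as a covariate (4.44 and 1.63). FOSL1 was dim and not brighter at day +15, at 48 to 56 intensity units before scaling against 58 to 79 at day -30. Of 22 interferon response genes 2 rose and 1 fell, OAS2 by 2.87 ± 0.75, with yak 1 lowest at day +15, IFIT2 by 1.40 ± 0.44 and DDX58 by -0.78 ± 0.26, whose 3 probes ran from -0.78 to 0.10. Among 14 genes of MHC class II 1 fell, its transactivator CIITA, by 1.14 on the log2 scale. Of 15 tight junction genes 1 fell, cingulin (CGN), by 0.95. Among 22 genes of involution and lysosomes 5 rose, with cathepsin D (CTSD) at 1.06 ± 0.19 (adjusted p 0.000878), and 1 fell, the survival gene BCL2, by 1.68. None of 12 clock genes and none of 21 collagen and stroma genes passed, and COL1A1 differed by -0.02 ± 0.51.

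Markers of the cell types in the gland were measured beside these results. The luminal keratin KRT19 rose by 1.33 ± 0.37, 1 of 10 luminal markers, and KRT18 differed by -1.04 ± 0.64. The summed linear level of the luminal markers ran from 62.5 to 82.3 at day -30 and from 95.0 to 135.5 at day +15, and their median change was -0.18. Of 11 myoepithelial markers 2 rose, MYLK by 1.06 ± 0.32 and MYH11 by 0.84 ± 0.30 (its 4 probes ran from -0.39 to 0.84), while KRT14 differed by -0.86 ± 0.46. None of 9 fibroblast markers passed, and their summed level ran from 74.1 to 101.5 and from 62.1 to 154.5. Of 11 adipocyte markers FABP4 and CFD rose by 1.59 ± 0.47 and 0.89 ± 0.23 and PLIN4 fell by 0.54. The summed adipocyte level was 16.9 to 29.2 at day -30 and 45.9 to 67.7 at day +15, with a median change of -0.08. Of 11 endothelial markers PECAM1 rose by 0.80 ± 0.22, and their summed level was 13.5 to 21.7 and then 21.8 to 28.5. None of 13 T and NK cell markers (median -0.67) and none of 9 B and plasma cell markers (median -0.76) passed. The summed T and NK level was 11.7 to 14.6 and then 5.91 to 9.75. Of 8 macrophage markers 1 rose, CD14. Every marker of the 10 types was well above background on at least 1 array of each day, except 1 B and plasma cell marker at day +15. The part of cell composition in the gene changes was not tested.

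Blood cell markers varied among yaks at day +15. Of 10 neutrophil markers 4 rose and 1 fell, with a median of 2.10. S100A8 was at -4.29 to -3.89 at day -30 and at 2.98, -2.06, -3.10 and -0.97 at day +15, and S100A12 at -0.57 to -0.31 and then at 5.57, 1.24, 0.56 and 2.77. Yak 1 was the highest in both. Their changes were 3.30 ± 1.11 and 2.98 ± 0.85. The cathelicidins CATHL5 and CATHL2 rose by 2.47 ± 0.77 and 2.12 ± 0.53, and PGLYRP1, a peptidoglycan-binding protein, fell by 2.38 on the log2 scale in all 4 yaks. The summed neutrophil level was 3.16 to 4.35 at day -30 and 3.76 to 84.7 at day +15. The summed level of 6 red cell markers was 1.90 to 8.79 and then 1.14 to 109.5. The share of these cells in the defence genes above was not tested.

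To place the changes after calving, day +15 was also compared with day +1 in the same fit. Only 64 of the 20108 genes differed (0.318%), 36 higher (0.179%) and 28 lower (0.139%), and 29 of them also differed from day -30. The day +1 arrays lay on slide 3, with a 75th percentile of 2085 to 5366 units, and no gene passed without yak 1, 2 or 3 (unadjusted p under 0.05 for 3434, 1920 and 2690), while 15 passed without yak 4, 5 of them among the 36 higher and 6 among the 28 lower. Both comparisons share the day +15 arrays. CXCL17 was lower at day +15 than at day +1 by 3.69 on the log2 scale (adjusted p 0.0331), as its mean was 0.44 at day +1. AGPAT9, of triacylglycerol synthesis, was 1.58 higher (adjusted p 0.0119) and MRPL33 0.87 higher (adjusted p 0.0432). LPO differed by 2.39 from day +1 (adjusted p 0.504) and RSPO1 by -1.57 (adjusted p 0.214), from day +1 means of 1.49 and -2.22. PTHLH, with a mean of 0.80 at day +1 and 4.44 at day +15, differed by 3.65 (adjusted p 0.0654). With only the 8 arrays of both days and yak as a fixed replicate block, 1894 genes were higher than at day +1 and 918 lower, and without the block none passed (unadjusted p under 0.05 for 5718). The median difference of the milk proteins from day +1 was 2.07 and none passed.

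**Figure D4:**
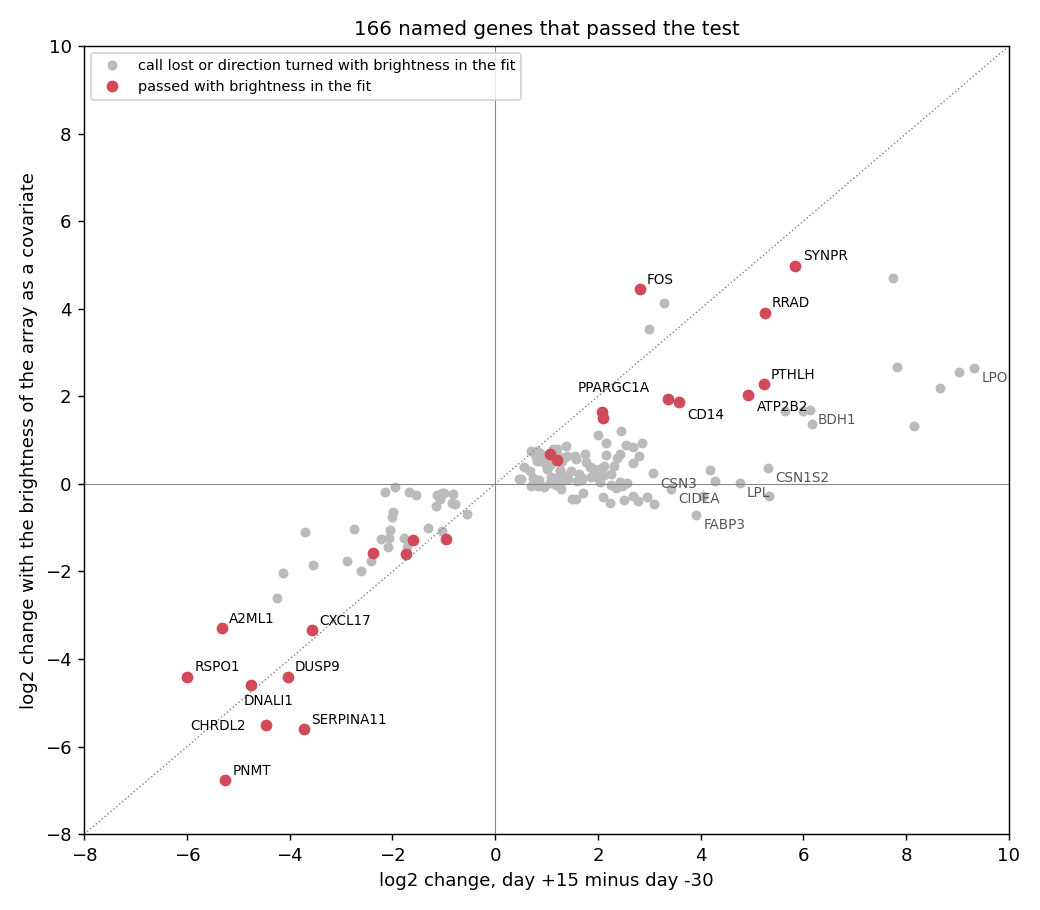
Change of the 166 named genes that passed (x axis, log2, day +15 minus day -30) against the change of the same gene in a fit with array brightness as a covariate (y axis, log2); red points passed in both fits and the dotted line marks equal values. DNALI1 and DUSP9 lie near the line and RSPO1 is at -4.40 on the y axis, while CSN3, LPL, CIDEA and FABP3 lie near or below 0 on the y axis.

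Of the 166 named genes that passed, 23 passed again in the same direction with brightness as a covariate, 121 lost the call and 22 turned direction. Brightness did not overlap between the days, so these counts cannot tell day from brightness. In the scanner record 23 passed again and 143 lost the call. RSPO1, DNALI1, CHRDL2, DUSP9, RRAD, PTHLH, ATP2B2, SYNPR, CCL28, CD14, MYC and PGLYRP1, 12 in all, passed in both. Of the 166, 42 passed in each of the 4 fits that leave out 1 yak.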

How the data were processed

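RNA of 36 mammary biopsies was measured on 1-colour Agilent arrays of a cattle design (probe positions on UMD 3.1), 4 yaks at each of 9 days. The scanner files give the authors' spot intensity from Feature Extraction 10.7.3.1, background-subtracted, per the file headers. The deposited log2 table holds 34997 of 43653 probes; per the series' design text it was made in GeneSpring 12, and each column equals the log2 processed signal of 1 scanner file less a constant near its 75th percentile. JMP Genomics 7 is named in the submitters' processing notes. The filter behind the 34997 probes is not given in the sources used here.

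Gene names came from the scanner files, and 1 probe per gene was kept, the one with the highest mean over 36 columns. A gene was tested if its probe was marked as well above background on 3 or more arrays of any 1 day, which left 20108, of which 11574 have a symbol in the yak gene table. limma 3.58.1 (R 4.3.3) was fitted with day as the main effect and yak as a random block (duplicateCorrelation, correlation 0.0531), with Benjamini-Hochberg adjustment over all 20108. The labels give the same yak numbers at every day, and the pairing is taken from them. Deviations of same-numbered arrays of different days had a mean correlation of 0.152 (others -0.0509), and 32 of 36 columns matched best with an array of their own yak. Centring on the 4 arrays of a day largely fixes the second mean once the first is known. Yak number also equals slide position at all 9 days, so these matches cannot tell animal from position. Between day -30 and day +15 alone the mean was 0.0841 (others -0.0283), and 3 of the 4 day +15 arrays correlated better with another yak at day -30. Tested on simulated data for day +15 against day -30 (20108 genes), the fit recovered 41 of 100 genes changed by 1 on the log2 scale and 85 of 100 changed by 2, with 7 false calls. The simulated noise was normal, with the same spread at all days and no effect of slide or brightness. No other genes were changed, whereas 17.9% were called in the data. The recovery and the false calls therefore need not hold for the real arrays.

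Named genes are the 12 largest rises and falls that passed, were alike in direction in all 4 yaks and have a symbol in the yak table; up to 5 passing members per list and direction; and a set always shown. A few genes are not reported here. The members, the 43 lists and the genes always shown were chosen with earlier results of these data known. Fits with other blocks, filters, scalings, a brightness covariate, the scanner files' days and each yak left out were run; setting spots marked as out of line to missing, and the filter on all 4 arrays of both days, were chosen after seeing the data. Probe sequences are those of the array files.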

Additional observations from a re-analysis of the deposited data

Results flagged for a closer look

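Among 366 sets of 4 values, those of the named genes at each of the 2 days, 20 held 1 yak whose gap to the nearest of the others was large against the whole range (Dixon's criterion at 95%), and chance gives about 1 in 20 sets.

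At day -30, LALBA was at -0.31 in yak 2 while the others were at 3.08 to 3.68, PAEP was at 4.59 in yak 4 (others 5.52 to 5.60), and LPL at -0.046 in yak 4 (others -0.19 to -0.18). Yak 2 was also apart in the ribosomal proteins RPL7 (5.66, others 4.70 to 4.82) and RPL5 (5.03, others 4.41 to 4.48) and in DDX58 (-0.75, others -1.73 to -1.58). Yak 1 was apart in CD36 (2.26, others 2.72 to 2.81), NDUFA5 (2.14, others 2.52 to 2.58), BCL2 (-0.036, others 0.50 to 0.52) and FOS (-0.84, others -2.06 to -1.88). ESR1 was at -5.84 in yak 3, with the others at -6.23 to -6.17.

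At day +15, yak 4 was apart in CCL28 (2.60, others 1.95 to 2.04), FOS (2.01, others 0.71 to 0.92), FOSL1 (-4.19, others -5.31 to -5.19), RPS12 (6.66, others 5.79 to 5.84) and RPS24 (6.85, others 6.14 to 6.25). These are scaled values from the dimmest array of that day. Before scaling yak 4 was lowest in CCL28 (6230 units, others 7243 to 8659) and RPS24 (119082, others 124856 to 158982). It lay among the others in RPS12 (104338, others 99052 to 117110). In FOSL1 it was just above them (56, others 48 to 55), and in FOS above them (4144, others 3252 to 3585). Yak 1 was apart in RSPO1 (-2.83, others -4.23 to -4.01) and OAS2 (-2.83, others -1.01 to -0.87). CHRDL2 was at -3.42 in yak 3 (others -4.25 to -4.18), and IGF1 at -1.76 in yak 2 (others -1.41 to -1.35).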

How the results depend on the processing

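Against day -30, higher and lower counts lay within 1.5 times of those reported (2059 and 1550) under the other blocks, filters and scalings, except 2553 lower (5562 in all) for the 8 arrays without a replicate block. With yak as a fixed replicate block the 8 arrays gave 2499 higher and 2264 lower, and all 36 gave 2103 and 1712, with none of the 166 named genes that passed turned in direction. The brightness covariate gave 175 higher and 532 lower (707), and the scanner files' days 106 and 144 (250), so these calls depend on both settings, whose causes were not tested. Leaving out 1 yak gave 367 to 844 higher, 229 to 792 lower and 596 to 1577 in all. Against day +1 the calls ran from 0 to 1894 higher and 0 to 918 lower: 1894 and 918 (2812) for 8 arrays with a fixed replicate block and 0 and 0 (0) without, 12 and 10 (22) for 36 arrays with no replicate block, 82 and 78 (160) with quantile normalization, 65 lower (115 in all) after normexp, 13 and 10 (23) with columns centred on the median, 0 and 1 (1) with brightness and 0 and 0 (0) with the scanner files' days. Leaving out 1 yak gave 0 to 6 higher, 0 to 9 lower and 0 to 15 in all against day +1. Where limma made no call, the unadjusted p was under 0.05 for 5718 genes (8 arrays, no block), 511 (scanner files' days) and 3434, 1920 and 2690 (without yak 1, 2 and 3).

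Directions turned for some genes and list medians, given here with the value under that setting; causes were not tested. With the mean of all probes they were IGFBP4 (-0.41) and STAT5A (-0.092) and the list involution and lysosome (-0.14). With quantile normalization they were B2M (-0.099), IGFBP4 (-0.14), IGFBP7 (-0.10) and LAMP1 (-0.18), and the lists cytosolic ribosomal proteins (-0.19), involution and lysosome (-0.16) and myoepithelium (-0.24). After normexp they were B2M (-0.051), CTSB (-0.096), IGFBP4 (-0.14), IGFBP7 (-0.015) and LAMP1 (-0.27), and the lists cytosolic ribosomal proteins (-0.16), mitochondrial ribosomal proteins (-0.020), involution and lysosome (-0.15) and myoepithelium (-0.14). Centring on the median turned COL1A1 (0.070), and the filter on all 4 arrays turned KLK6 (1.00). With the brightness covariate they were ACACA (-0.69), ACSS2 (-0.45), AGPAT1 (-0.22), AGPAT6 (-0.027), B4GALT1 (-0.36), BTN1A1 (-4.62), CATHL5 (-0.038), CIDEA (-0.11), COL1A1 (0.98), CSN1S1 (-1.02), CSN2 (-2.01), FABP3 (-0.71), FASN (-1.25), GTSF1 (-0.28), IGFBP4 (-0.041), KRT18 (0.29), LALBA (-1.37), MARS (-0.061), MFGE8 (-0.29), MRPL27 (-0.049), MUC1 (-0.36), MUC15 (-0.29), ORAI1 (-0.098), PAEP (-1.23), PIGR (-0.34), PRLR (-0.067), SCD (-0.46), SLC16A1 (-0.39), SLC1A5 (-0.28), SLC35A2 (-0.11), SREBF1 (-0.35), STAT5A (-0.999), XBP1 (-0.030) and XDH (-0.30), and the lists milk proteins (-1.23), fatty acid synthesis and desaturation (-0.0096), milk fat globule secretion (-0.33), cholesterol synthesis (-0.16), glucose uptake and lactose synthesis (-0.11), R-spondins and Wnt feedback (0.049), aminoacyl tRNA synthetases (-0.16), cytosolic ribosomal proteins (-0.16), mitochondrial ribosomal proteins (-0.23), oxidative phosphorylation (-0.056), myoepithelium (-0.0018), B and plasma cell (0.078) and T and NK cell (0.17). With the scanner files' days they were KRT18 (0.081), PRLR (-0.15), SREBF1 (-0.32) and STAT5A (-0.53), and the list B and plasma cell (0.23). Leaving out 1 yak in turn, COL1A1 ran from -0.24 to 0.21 (above 0 without yak 1 or 2), LTF from -0.053 to 1.44 (below 0 without yak 1) and STAT5A from -0.27 to 0.26 (below 0 without yak 2 or 4). Dim probes at day +15 limit the falls: 119 of the genes that fell were well above background on fewer than 3 of 4 arrays there, and 31 of those that rose were so at day -30.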

Other observations

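The probes of RSPO1 and DNALI1, which had the largest fall and the smallest adjusted p of the named genes, lie 43.4 kb apart on cattle chromosome 3 (UMD 3.1). The region was looked at after these values were seen. GNL2, a nucleolar GTPase whose probe lies between them, had a difference of -0.03 (adjusted p 0.917). Of the other genes given here with probes within 150 kb of the RSPO1 probe, EPHA10, an ephrin receptor, fell by 0.80 on the log2 scale (adjusted p 0.0149), and an unnamed transcript beside it fell by 3.24 (adjusted p 0.000261). CDCA8 (-1.54), C3H1orf109 (0.56), MEAF6 (-0.41) and ZC3H12A (-0.71) did not pass.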
